A study of Mus musculus with 6 samples.

Results

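The genes described here were 34 imprinted genes of the mouse named in a list, matched by symbol in the deposited expression table and arranged by locus and expressed allele. Of the 34, 33 were found among the 18872 genes of the table, at 19 loci, and 29 passed the minimum level for a test, a mean normalized count of at least 10 over all libraries. No expression value of Snrpn was analysed here. Imprinted genes are expressed mainly from the copy inherited from the mother or from the copy inherited from the father. The allele that is used is set by DNA methylation placed in the egg or the sperm at an imprinting control region, which is then kept in the cells of the embryo and acts on several genes of a locus. Many imprinted genes are most active in the fetus, where they adjust growth and differentiation, and fibroblasts of the mid-gestation embryo are a classic source of their RNA.

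RNA was taken from primary mouse embryonic fibroblasts (MEFs) of E14.5 B6 embryos and sequenced in 6 libraries, of which 3 carry the label SARAF-KO and 3 the label SARAF-WT. SARAF is a membrane protein of the endoplasmic reticulum that turns down store-operated calcium entry. The SARAF-KO mice carried floxed SARAF alleles with exon 3 removed by Cre under the ubiquitous PGK promoter, and the SARAF-WT controls were Cre-negative littermates with the same floxed alleles, which the sample labels call wild type. Both groups were grown untreated to 75% confluency. Which embryo or dish each library came from is not given in the sources used here, so the p-values measure the spread between these libraries, which may be technical.

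As a check of the labels, Saraf itself was counted first. Under the KO label it had a mean of 4497 ± 124 normalized counts, and under the WT label 3328 ± 73.2 (SD, n = 3 each), a log2 difference of 0.43 (SE 0.03, limma adjusted p = 4.2e-12). The targeted gene was therefore higher under the KO label, and a gene-level count cannot show the loss of a single exon. Each direction below is given for the libraries as labelled, KO-labelled minus WT-labelled. The libraries held 24595137 to 37979662 recovered reads, and 7864 of 13986 genes tested passed in either direction. Most fibroblast markers were abundant in all libraries, but 8 of 11 tested were lower under the KO label (72.7%, against 28% of all genes). The list summed to 302600 to 305300 against 377100 to 384100. Postn, 1 of the 8, was scarce (2.69 against 32.8) and reached the minimum level only through the WT-labelled libraries. The 2 that were higher (18.2%, against 28.2% of all genes) were Vim, at 32940 against 26470, and S100a4, at 6494 against 3375. Mesothelial markers summed to 4723 to 5122 against 1577 to 1647, nearly all of it Msln, with Upk3b at 2.08 against 3.16. Neural markers summed to 8212 to 8509 against 5220 to 5489. Among them Sox2, Pax3 and Tubb3 rose, while Nes (3689 against 3649) and Elavl3 did not pass. Sox10 was too low to test, at 0 against a mean of 1.21. Cartilage markers summed to 625.5 to 719.7 against 932.9 to 982.5, nearly all of it Sox9, while Col2a1 was at 9.22 against 5.31. Endothelial markers summed to 1256 to 1355 against 2086 to 2123, nearly all of it Kdr, which fell, while Tek rose (106.9 against 64.0) and Pecam1 and Cdh5 were too low to test, at 3.83 against 5.67 and 10.8 against 8.81. Epithelial markers summed to 30.6 to 42.8 against 81.0 to 104.7, mostly Krt18, which fell (25.5 against 80.5), with Epcam at 3.17 against 9.67 and Cdh1 at 1.19 against 1.65. Of 5 sex-linked genes looked up, only Xist was in the table, at 14120 to 15150 against 17090 to 17770. The Y-linked Ddx3y, Eif2s3y, Kdm5d and Uty were not among its genes, and the sex of the embryos was not tested. The part of these differences in the imprinted genes was not tested, and in bulk RNA fewer cells of a type and less RNA per cell cannot be told apart.

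The start regions of 6 of the genes are shown because their loci gave the widest changes in each direction. They are RefSeq sequences of 300 bases around the annotated start (GRCm38.p6), 5′ to 3′ on the strand of the gene. Capitals mark the hexamer TGCCGC, the core of the site bound by ZFP57, a zinc finger protein that keeps methylation at imprinting control regions, or its reverse complement GCGGCA.
Plagl1, chr10:13090582-13090881, plus strand: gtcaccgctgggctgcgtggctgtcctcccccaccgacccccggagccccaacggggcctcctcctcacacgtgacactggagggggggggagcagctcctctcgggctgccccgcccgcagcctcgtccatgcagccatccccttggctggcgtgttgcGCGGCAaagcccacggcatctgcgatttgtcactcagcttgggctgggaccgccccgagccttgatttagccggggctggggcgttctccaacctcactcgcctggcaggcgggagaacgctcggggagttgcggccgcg
Nnat, chr2:157559828-157560127, plus strand: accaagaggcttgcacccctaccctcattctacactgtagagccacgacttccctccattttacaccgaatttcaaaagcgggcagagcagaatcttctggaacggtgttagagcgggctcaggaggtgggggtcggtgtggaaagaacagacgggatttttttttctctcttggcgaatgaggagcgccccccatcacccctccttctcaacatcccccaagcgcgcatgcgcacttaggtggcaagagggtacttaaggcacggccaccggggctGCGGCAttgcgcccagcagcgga
Meg3, chr12:109540746-109541045, plus strand: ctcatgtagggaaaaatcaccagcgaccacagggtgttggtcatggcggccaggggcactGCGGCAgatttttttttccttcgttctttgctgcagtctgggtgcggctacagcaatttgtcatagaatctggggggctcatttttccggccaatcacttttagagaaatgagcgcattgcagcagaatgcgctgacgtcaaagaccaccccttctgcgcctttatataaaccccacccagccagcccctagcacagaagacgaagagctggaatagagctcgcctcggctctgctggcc
Zim1, chr7:6696383-6696682, minus strand: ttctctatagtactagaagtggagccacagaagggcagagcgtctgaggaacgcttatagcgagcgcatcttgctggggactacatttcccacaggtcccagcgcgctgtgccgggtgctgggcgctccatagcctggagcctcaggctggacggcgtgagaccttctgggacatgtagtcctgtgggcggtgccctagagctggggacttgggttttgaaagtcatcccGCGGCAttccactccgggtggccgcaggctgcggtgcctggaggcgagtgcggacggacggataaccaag
Dlk1, chr12:109452573-109452872, plus strand: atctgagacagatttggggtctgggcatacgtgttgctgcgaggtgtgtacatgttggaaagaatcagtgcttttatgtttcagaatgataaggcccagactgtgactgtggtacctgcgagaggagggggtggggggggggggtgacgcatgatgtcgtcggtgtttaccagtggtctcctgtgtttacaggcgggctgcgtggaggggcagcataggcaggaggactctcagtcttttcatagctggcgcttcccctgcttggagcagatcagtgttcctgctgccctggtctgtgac
Peg3, chr7:6730370-6730669, minus strand: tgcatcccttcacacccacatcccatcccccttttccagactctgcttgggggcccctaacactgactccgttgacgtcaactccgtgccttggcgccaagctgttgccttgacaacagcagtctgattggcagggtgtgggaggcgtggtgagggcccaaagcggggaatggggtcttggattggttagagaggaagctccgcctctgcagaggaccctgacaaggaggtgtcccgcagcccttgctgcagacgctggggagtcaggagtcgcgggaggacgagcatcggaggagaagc
The hexamer was in 13 of the 42 start regions matched to 28 of the genes, Snrpn included (31.0%). Of the 13, a pair at Mest overlap almost fully. Over all genes the hexamer was in 11.6% of the 32851 start regions. Impact, which was higher, was left out of the members' regions, so their share does not cover it. H19, Cdkn1c, Peg10, Sgce and Trappc9 had no start region matched. The hexamer stood in start regions of genes that were lower (Plagl1, Nnat, Meg3, Mest, Igf2, Grb10, Mcts2) and of Zim1 and Copg2, which were higher. It was also in those of Zdbf2, which held 3 copies and did not pass, and of Nap1l5 and Snrpn, which were not tested. The windows shown for Dlk1 and Peg3 did not hold these letters. The median number of CpG dinucleotides was 16.5 in the members' start regions and 7 over all. These matches are a description of sequence, and methylation was not measured.

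Several of the RNAs are also hosts of miRNAs, short RNAs that pair with messenger RNAs through the seed, bases 2 to 8 of the mature strand. The sequences below are RefSeq mature miRNAs that lie inside the genes with the clearest changes, with the seed in capitals.
miR-675-5p in H19, chr7:142577112-142577133, minus strand: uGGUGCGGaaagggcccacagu
miR-675-3p in H19, chr7:142577078-142577099, minus strand: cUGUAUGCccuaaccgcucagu
miR-483-5p in Igf2, chr7:142654968-142654989, minus strand: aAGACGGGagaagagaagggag
miR-483-3p in Igf2, chr7:142654932-142654952, minus strand: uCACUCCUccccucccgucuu
miR-335-5p in Mest, chr6:30741314-30741336, plus strand: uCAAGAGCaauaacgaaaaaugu
miR-335-3p in Mest, chr6:30741354-30741375, plus strand: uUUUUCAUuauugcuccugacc
miR-770-5p in Meg3, chr12:109563710-109563731, plus strand: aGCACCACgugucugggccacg
miR-370-3p in Rian, chr12:109618305-109618326, plus strand: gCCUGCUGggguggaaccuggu
miR-453 in Mirg, chr12:109735669-109735692, plus strand: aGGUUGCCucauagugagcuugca
miR-496a-5p in Mirg, chr12:109739132-109739152, plus strand: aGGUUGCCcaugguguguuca
RefSeq placed 34 mature miRNAs from 18 hairpins inside Meg3, Rian and Mirg, with 33 different seeds. The shared seed is that of miR-453 and miR-496a-5p. The miRNAs themselves were not measured, and the values that follow are of the host RNAs.

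Of the 29 imprinted genes tested, 20 (69.0%) passed at an adjusted p under 0.05 (limma, Benjamini-Hochberg over all genes), against 56.2% of all genes tested. Lower levels under the KO label were found for 15 (51.7%), against 28% of all genes, and higher levels for 5 (17.2%), against 28.2%. The share that passed was thus not far above the background, while the 15 against 5 split stood beside an even split over all genes. The members were chosen with earlier results of these data known, so these shares describe the list and are no test of it. A change of at least 0.5 on the log2 scale was reached by 9 genes (31.0%) against 12.7% of all genes, of which 8 were lower (background 7.72%) and 1 higher (4.95%). The 8 are Plagl1, Dlk1, Nnat, Rian, Meg3, Igf2, Cdkn1c and Mest. The other is Zim1, which reached the minimum level only through the KO-labelled libraries. Every KO-labelled library lay beyond every WT-labelled library for 19 genes (65.5%), against 61.4% of all genes, with 14 of them lower (30.5% over all genes) and 5 higher (30.9%). The median log2 change was −0.13 over the 29 genes and −0.0014 over all genes tested, and the median absolute change was 0.23 and 0.16.

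**Figure D1:**
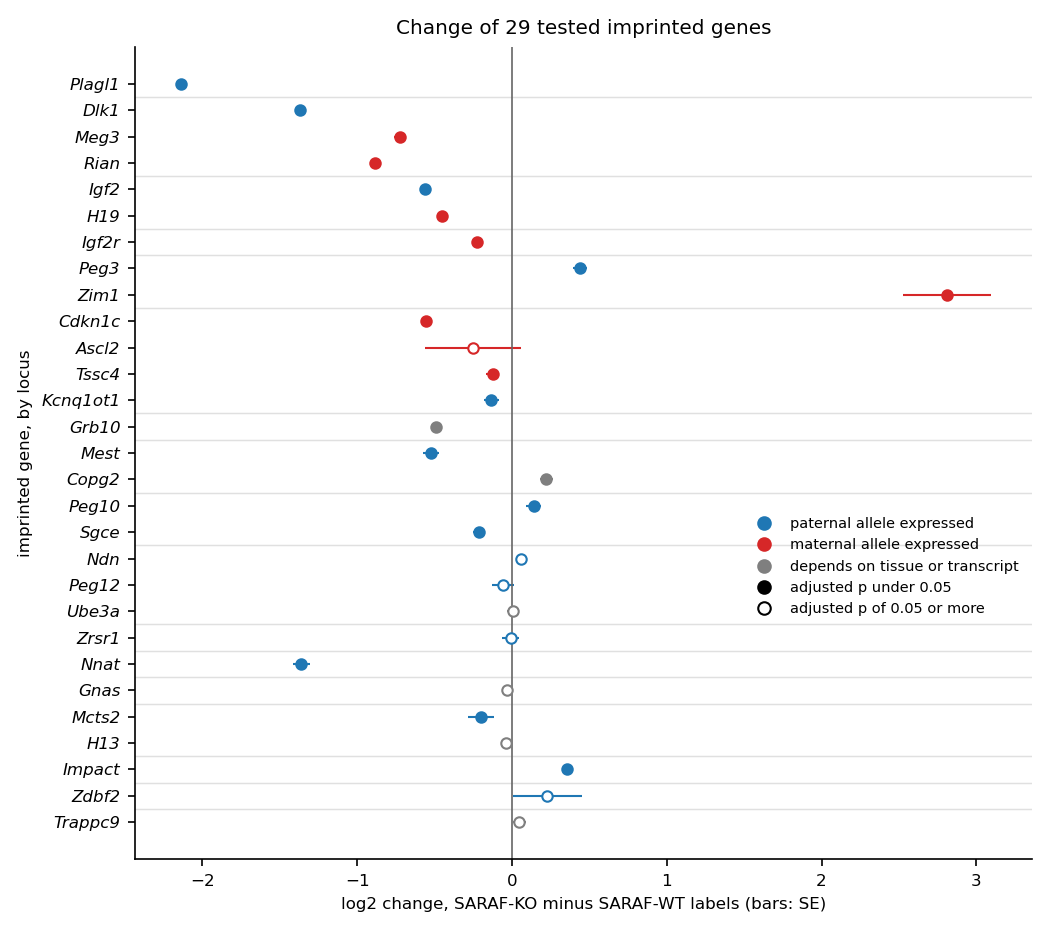
Log2 change (x axis, KO-labelled minus WT-labelled libraries, n = 3 per group) of the 29 imprinted genes tested, ordered by locus, with bars for the SE. Filled points passed at an adjusted p under 0.05, and colours give the expressed allele: 8 of 15 paternally and 6 of 8 maternally expressed genes were lower, against 28% of all genes tested.

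Genes of either parental class were lower. Among 15 paternally expressed genes tested, 8 were lower and 3 higher, and among 8 maternally expressed genes, 6 were lower and 1 higher. Over all genes tested, 28% were lower and 28.2% higher. The 4 noncoding RNAs, H19, Meg3, Rian and Kcnq1ot1, were all lower, but Meg3 and Rian share a locus and the call of Kcnq1ot1 was narrow. Of the 6 genes whose imprint depends on tissue or transcript, 1 was lower (Grb10) and 1 higher (Copg2). The reads were not separated by allele, so the counts are sums over the maternal and paternal copies.

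**Figure D2:**
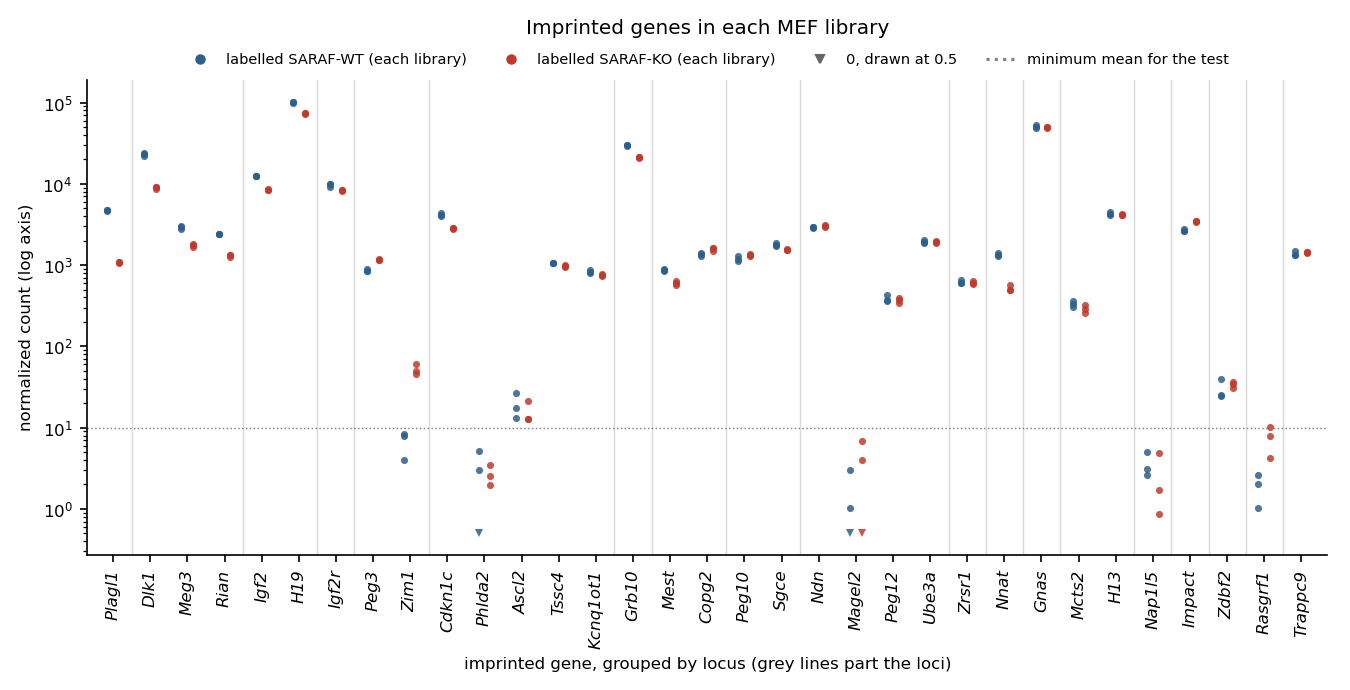
Normalized count (log axis) of the 33 imprinted genes in each of the 6 libraries, grouped by locus, with 0 drawn at 0.5 and the dotted line at the minimum mean of 10. The libraries of a label lie close together for most genes, and among the 29 genes tested the labels are widest apart at Zim1, Plagl1, Dlk1 and Nnat.

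Plagl1 (Zac1), a paternally expressed zinc finger transcription factor known for holding back the cell cycle, had the deepest fall of the 29 genes. It lies at chr10:13060504-13131694 (GRCm38, plus strand). Its normalized counts were 1084, 1047 and 1079 in the KO-labelled libraries and 4803, 4626 and 4721 in the WT-labelled ones. The groups did not overlap, and the spread within each was below 2% of its mean (1.86% and 1.88%). The mean was 4.41-fold higher under the WT label, a log2 change of −2.14 (SE 0.03, limma adjusted p = 2.12e-24). Of 9 other genes tested within 500 kb, 2 were higher and 2 lower, with changes from −0.53 (Fuca2) to 0.27 (Ltv1). The steep difference at Plagl1 was thus not shared by the genes measured around it.

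The Dlk1-Meg3 locus on chromosome 12 holds paternally expressed protein genes and a row of maternally expressed noncoding RNAs, which share a control region near the start of Meg3. Dlk1 encodes a transmembrane protein of the EGF-like family that restrains adipocyte differentiation. Its normalized counts were 9062, 9069 and 8706 under the KO label and 23981, 22235 and 23099 under the WT label, with no overlap. The mean was 2.58-fold higher under the WT label (log2 change −1.37, SE 0.03, limma adjusted p = 1.95e-22). Meg3, a long noncoding RNA of the maternal allele, had 1829, 1687 and 1786 against 2989, 2777 and 2979 (log2 change −0.72, SE 0.04, limma adjusted p = 1.48e-14). Rian, the next maternal RNA and a host of small nucleolar RNAs, had 1342, 1344 and 1264 against 2421, 2427 and 2437 (log2 change −0.88, SE 0.04, limma adjusted p = 1.14e-16). The paternally and the maternally expressed genes of the locus were therefore all lower, and in each case every KO-labelled library lay under every WT-labelled one.

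The fall extended to imprinted neighbours of this locus outside the list. Rtl1, a paternally expressed gene derived from a retrotransposon, had normalized counts of 9.35, 5.14 and 1.97 under the KO label and 82.05, 50.8 and 53.8 under the WT label (log2 change −3.43, SE 0.35, limma adjusted p = 8.46e-09), and it reached the minimum level only through the WT-labelled ones. Mirg, the miRNA host farther along, had 35.7, 45.4 and 39.4 against 75.0, 106.8 and 80.1 (log2 change −1.09, SE 0.17). Begain, at −384.6 kb from the start of Dlk1, had 243.0, 217.5 and 232.7 against 477.1, 419.8 and 471.4 (log2 change −0.98, SE 0.07). These 3 all passed, and no KO-labelled library reached a WT-labelled one. Dio3, which encodes the deiodinase that inactivates thyroid hormone and lies at the far end of the imprinted region, had 81.6, 96.8 and 84.8 against 212.7, 174.1 and 225.9 (log2 change −1.21, SE 0.12, limma adjusted p = 3.02e-09). Wdr25, the remaining gene tested within 500 kb, changed by 0.07 (SE 0.11) and did not pass. The listed and neighbouring genes fell unequally: counts per kb of exon gave a Meg3 over Dlk1 ratio of 0.0618 ± 0.0032 under the KO label and 0.0395 ± 0.00076 under the WT label (SD, n = 3), with no overlap. Rian over Meg3 was 0.74 ± 0.045 against 0.827 ± 0.035.

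**Figure D3:**
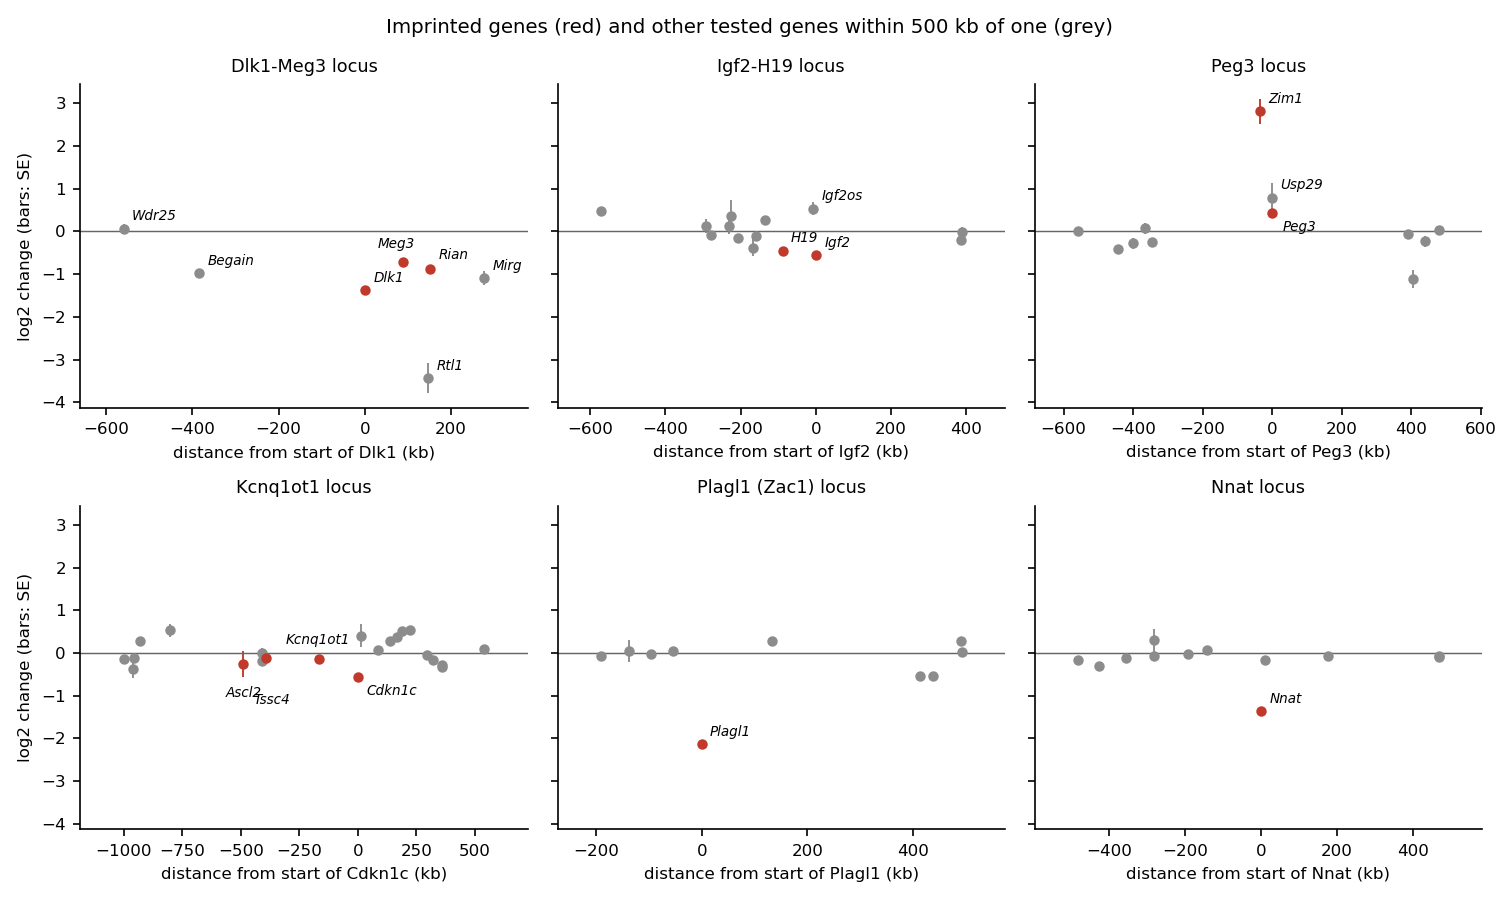
Log2 change (y axis, bars SE) against distance in kb from the start of a listed gene at 6 loci, with listed imprinted genes in red and other tested genes within 500 kb of one in grey. At Dlk1-Meg3 the genes from Begain to Mirg all lie below 0, whereas Plagl1 and Nnat stand apart from the genes on either side.

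Igf2 and H19 lie about 88.7 kb apart on chromosome 7 and share enhancers and a control region bound by CTCF. Igf2 is expressed from the paternal copy and encodes a fetal growth factor, and H19 is a noncoding RNA of the maternal copy. Igf2 had normalized counts of 8646, 8403 and 8393 under the KO label and 12420, 12660 and 12379 under the WT label (log2 change −0.56, SE 0.02, limma adjusted p = 7.11e-16). H19 had 75175, 74116 and 72600 against 101109, 101857 and 100066 (log2 change −0.45, SE 0.02, limma adjusted p = 4.89e-14). Both were lower with no overlap between the labels, although they are read from opposite parental copies. H19 was the most abundant of the imprinted RNAs per kb of exon, at rank 10 of 18083 genes with a length. It took 0.225 to 0.233% of the normalized counts of a KO-labelled library and 0.31 to 0.315% of a WT-labelled one. The H19 over Igf2 ratio per kb was 20.3 ± 0.21 against 18.8 ± 0.11 (SD, n = 3), a small difference with no overlap. In the annotation 62.8% of the exon bases of Igf2 also belong to another gene model, Gm49394, on the same strand. Among 12 other genes tested within 500 kb, 3 were higher and 3 lower. The highest of them was Igf2os, transcribed against Igf2, at 0.53 (SE 0.15, limma adjusted p = 4.22e-03).

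The receptors and partners of IGF2 were measured alongside. Igf2r, maternally expressed, encodes the receptor that carries IGF2 to lysosomes, and had normalized counts of 8433, 8218 and 8333 against 9201, 10074 and 9893 (log2 change −0.22, SE 0.03, limma adjusted p = 4.56e-07). It fell less than its ligand, and the Igf2r over Igf2 ratio per kb was 0.604 ± 0.0058 under the KO label and 0.479 ± 0.02 under the WT label. Grb10, an adaptor that dampens insulin and IGF receptor signaling and is maternally expressed outside neurons, had 21306, 21265 and 20890 against 29970, 29451 and 29688 (log2 change −0.49, SE 0.02, limma adjusted p = 2.82e-15). Of 13 other IGF2 partners tested, 4 were higher (30.8%, against 28.2% of all genes) and 8 lower (61.5%, against 28%), with a median log2 change of −0.16. The remaining partner, the receptor gene Igf1r, changed by −0.03 (SE 0.03) and did not pass. The IGF binding proteins went in both directions. Igfbp5 had 232.9, 212.4 and 254.4 against 1339, 1424 and 1484 (log2 change −2.60, SE 0.06), whereas Igfbp6 had 170.8, 202.1 and 202.1 against 46.6, 38.4 and 46.0 (log2 change 2.11, SE 0.13). Igfbp2 changed by −1.44 (SE 0.08) and Igfbp4 by −0.50 (SE 0.03). Igf2bp3, which encodes a protein that binds Igf2 messenger RNA, changed by 0.72 (SE 0.05), and Irs2, an adaptor of the insulin and IGF1 receptors, by 0.42 (SE 0.03), all 6 past the test.

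The Kcnq1ot1 locus, farther along chromosome 7, takes its name from a paternally expressed noncoding RNA that silences neighbouring genes on the paternal copy. Cdkn1c, maternally expressed, encodes a cyclin-dependent kinase inhibitor, and had normalized counts of 2875, 2877 and 2768 under the KO label and 4149, 4044 and 4319 under the WT label. The groups did not overlap, and the log2 change was −0.55 (SE 0.03, limma adjusted p = 8.72e-14). In the annotation 30.7% of its exon bases lie under Gm44732 on the opposite strand, and the kit used does not mark strand. Kcnq1ot1 itself had 757.2, 738.2 and 781.8 against 875.2, 831.3 and 794.4 (log2 change −0.13, SE 0.05, limma adjusted p = 0.0219). Tssc4, a splicing chaperone gene, changed by −0.12 (SE 0.04, limma adjusted p = 0.0131). Both calls were narrow: Kcnq1ot1 passed in 12 of 16 alternatives and not without KO-labelled replicate 1 or 2 or WT-labelled replicate 1, and Tssc4 in 14 and not without KO-labelled replicate 3. Ascl2, a transcription factor of the placenta, had 12.8, 21.4 and 12.8 against 17.2, 26.9 and 13.1, with overlapping groups (log2 change −0.25, SE 0.31). Phlda2, which restrains placental growth, was too low to test, at 2.55, 3.42 and 1.97 against 3.04, 5.18 and 0. Of 18 other genes tested near this locus, 7 were higher and 4 lower, so that Cdkn1c stood below a mixed surrounding.

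The Peg3 locus went the other way. Peg3, a paternally expressed zinc finger gene at chr7:6703892-6730431, had normalized counts of 1162, 1185 and 1143 under the KO label and 904.5, 834.4 and 835.1 under the WT label (log2 change 0.44, SE 0.04, limma adjusted p = 6.56e-09). Zim1, its maternally expressed zinc finger neighbour at chr7:6671269-6696450, had 49.3, 60.8 and 45.4 against 4.05, 8.29 and 7.88. The WT-labelled values come from 4, 8 and 6 recovered reads, and Zim1 reached the minimum level for the test only through the KO-labelled libraries. The groups of both genes did not overlap. The mean of Zim1 was 7.69-fold higher under the KO label, a log2 change of 2.81 (SE 0.29, limma adjusted p = 7.80e-09), and it was the steepest rise among the 29 genes. At this level the size is imprecise, and it ran from 2.29 to 2.97 over 15 alternatives, all of which called it. Usp29, which starts 0.147 kb from Peg3 in the opposite direction, had 17.0, 14.6 and 17.7 against 13.2, 5.18 and 10.5 (log2 change 0.79, SE 0.35, limma adjusted p = 0.0545), short of the threshold though without overlap. It passed under 4 of 15 alternatives, among them the fit without WT-labelled replicate 1. The other 9 genes tested within 500 kb, all zinc finger genes by name, ran from −1.11 (Zfp773) to 0.07 (Zfp78). The Peg3 over Zim1 ratio per kb was 13.8 ± 1.8 under the KO label and 87 ± 42 under the WT label.

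**Figure D4:**
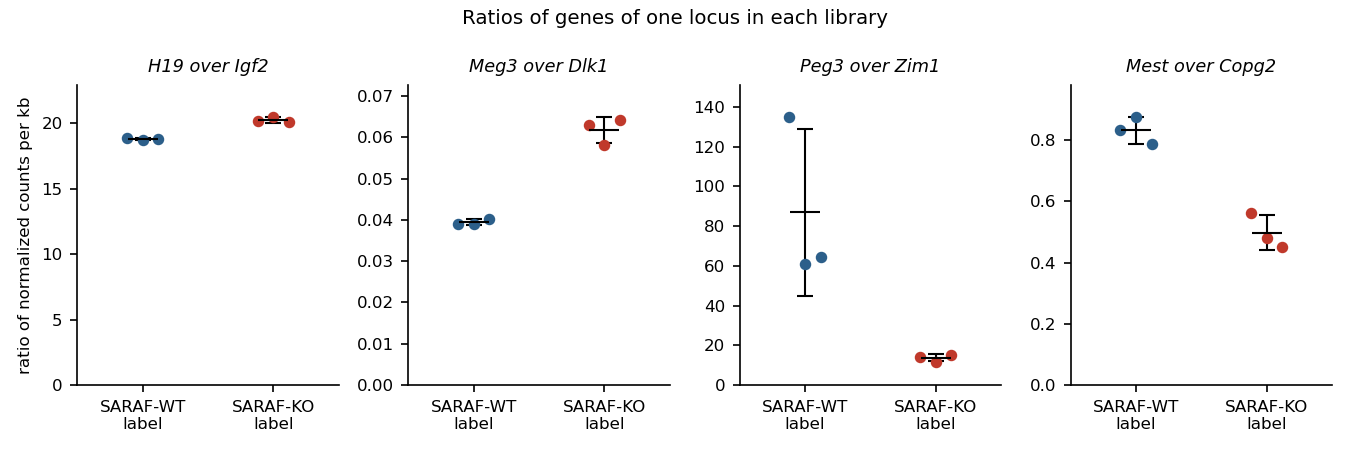
Ratio of the normalized counts per kb of exon of neighbouring imprinted genes in each library (points), with the mean and SD of 3 libraries per label (black). H19 over Igf2 moved least (18.8 to 20.3), Peg3 over Zim1 fell from 87 to 13.8, and none of the 4 pairs drawn overlapped between the labels.

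Nnat, paternally expressed from an intron of Blcap on chromosome 2, encodes neuronatin, a small protein of the endoplasmic reticulum membrane. Its normalized counts were 500.5, 562.6 and 500.9 under the KO label and 1413, 1313 and 1288 under the WT label, with no overlap. The log2 change was −1.36 (SE 0.05, limma adjusted p = 6.40e-17), a mean 2.57-fold higher under the WT label. Blcap, its host gene, changed by −0.16 (SE 0.04), and of the 11 other genes tested within 500 kb, Blcap included, 7 were lower and the other 4 did not pass. The lowest was Samhd1, at −0.29 (SE 0.03), and the sparsely counted Mroh8, which did not pass, was the highest at 0.29 (SE 0.27). Nnat thus fell further than any of them.

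At the Mest locus the partners parted. Mest, a paternally expressed hydrolase-like gene and host of miR-335, had normalized counts of 641.6, 607.1 and 567.9 against 870.1, 883.2 and 856.1 (log2 change −0.52, SE 0.05, limma adjusted p = 4.38e-09). Copg2, a coatomer subunit gene that is maternally expressed in some tissues, had 1482, 1636 and 1636 against 1356, 1308 and 1412 (log2 change 0.22, SE 0.04, limma adjusted p = 8.88e-05). Mest was lower and Copg2 higher, each with no overlap, and the Mest over Copg2 ratio per kb was 0.498 ± 0.057 against 0.832 ± 0.045. Their 3′ ends share 912 exon bases on opposite strands, 23.1% of those of Mest and 17.8% of those of Copg2. Reads from that stretch cannot be assigned to a strand.

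Peg10 and Sgce start next to each other on chromosome 6 and are both paternally expressed, but they also parted. Sgce, the epsilon-sarcoglycan gene, had 1561, 1546 and 1536 against 1739, 1791 and 1859 (log2 change −0.21, SE 0.04, limma adjusted p = 1.50e-05). Peg10, a retrotransposon-derived gene, had 1288, 1332 and 1355 against 1300, 1189 and 1125, with overlapping groups (log2 change 0.14, SE 0.05, limma adjusted p = 0.0114). Peg10 did not pass without KO-labelled replicate 3, nor without WT-labelled replicate 3. Impact, a paternally expressed regulator of the kinase GCN2, had 3476, 3382 and 3442 against 2612, 2805 and 2647, and was higher with no overlap (log2 change 0.35, SE 0.03, limma adjusted p = 7.32e-10).

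The listed genes of the remaining loci changed little or not measurably. In the Snrpn region of chromosome 7, Ndn (necdin), a growth suppressor of the MAGE family, had a mean of 3043 against 2920 (log2 change 0.06, SE 0.03), and Peg12 and the ubiquitin ligase gene Ube3a changed by −0.06 (SE 0.07) and 0.01 (SE 0.04). None of these 3 passed. Of 3 other genes tested within 500 kb of this region, 2 were lower, and Mkrn3 did not pass. The 2 were Atp10a (log2 change −0.32, SE 0.03) and the sparsely counted Snhg14, at 21.0 against 35.9. Snhg14 changed by −0.75 (SE 0.28, limma adjusted p = 0.0247) and shares 1803 exon bases with Ube3a on the opposite strand. Magel2, also of the MAGE family, was too low to test, at 0, 6.85 and 3.94 against 3.04, 1.04 and 0. Gnas, the gene of a stimulatory G protein subunit, was among the most abundant per kb, at 4417 against 4513, and changed by −0.03 (SE 0.03). The retrogene Zrsr1 changed by −0.0069 (SE 0.05), the signal peptide peptidase gene H13 by −0.04 (SE 0.03), the brain-imprinted trafficking gene Trappc9 by 0.05 (SE 0.04) and the zinc finger gene Zdbf2 by 0.23 (SE 0.22). Not one of them passed, which with these errors leaves small changes undetected and, for the sparsely counted Zdbf2 and Ascl2, larger ones too. Trappc9 passed without WT-labelled replicate 1, at 0.11.

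Of the retrogenes inside other genes, Mcts2 was at the edge of the test. Mcts2, a paternally expressed retrogene in an intron of H13, had 260.9, 322.8 and 287.9 against 304.9, 365.9 and 330.9, with overlapping groups (log2 change −0.20, SE 0.08, limma adjusted p = 0.0436). It passed in 8 of 16 alternatives, and not without KO-labelled replicate 1 or 3 or WT-labelled replicate 2 or 3. The H13 over Mcts2 ratio per kb overlapped between the labels (1.49 ± 0.14 against 1.33 ± 0.17). Mcts1, the paralog that could share its reads, changed by 0.24 (SE 0.05). Zrsr1 shares 412 exon bases on the opposite strand with its host Commd1, which changed by 0.22 (SE 0.05). Nap1l5, in an intron of Herc3, was too low to test, at 1.70, 0.856 and 4.93 against 5.06, 3.11 and 2.63. Rasgrf1, a Ras exchange factor gene expressed from the paternal allele in neonatal brain, was also below the minimum, at 10.2, 4.28 and 7.89 against 2.03, 1.04 and 2.63. These come from 12, 5 and 8 against 2, 1 and 2 recovered reads, and the groups did not overlap, but the main test left Rasgrf1 out. Among the alternatives, the fit with no minimum level and DESeq2 covered 33 members and called 6 and 5 higher. Their values for Rasgrf1 are not given here.

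**Figure D5:**
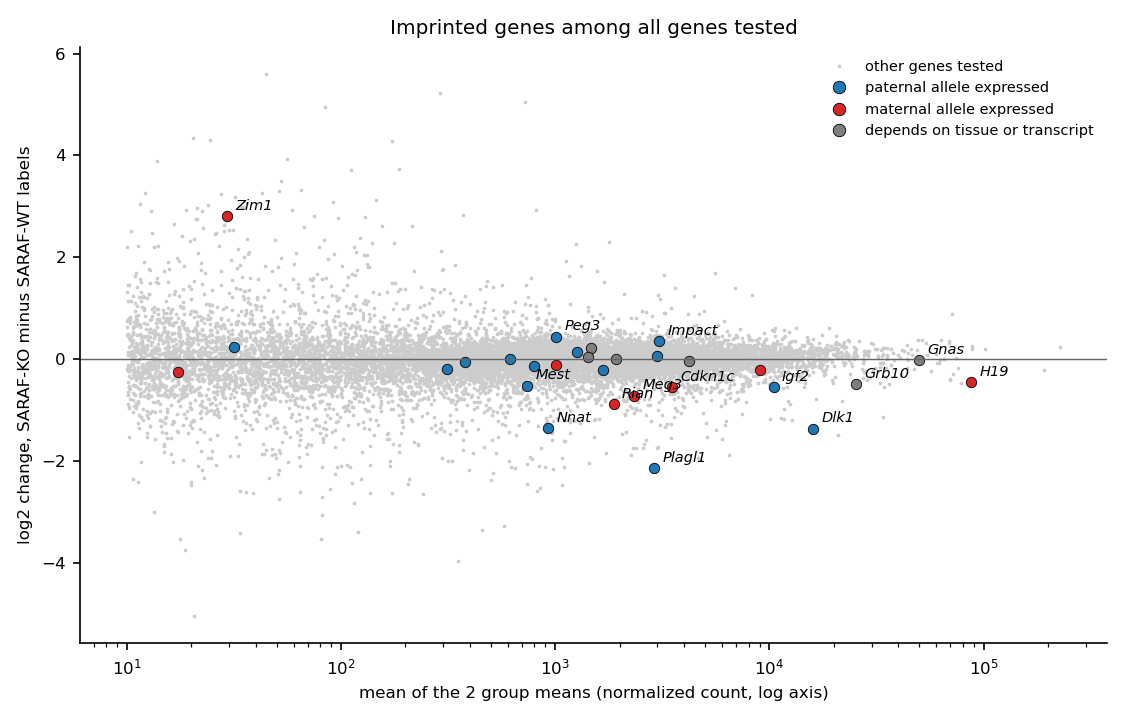
Log2 change (y axis) against the mean of the group means (x axis, normalized count, log axis) for the 13986 genes tested (grey) and the 29 imprinted genes (coloured by expressed allele). The imprinted genes span levels from Ascl2 to H19, with Plagl1 at −2.14 and Zim1 at 2.81 as the extremes.

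A further 50 imprinted genes were looked up, and 33 of them were tested. Of these, 9 were higher (27.3%, against 28.2% of all genes) and 16 lower (48.5%, against 28%), with a median log2 change of −0.16. Many of the lower ones, among them Cd81, Dhcr7, Casd1, Blcap and Peg13, lie within 500 kb of the loci described above. The list is therefore not a set separate from those loci. Beside the Dlk1-Meg3 genes above, the smallest p-values were those of Smoc1, a matricellular protein gene (4349, 4178 and 4221 against 1811, 1792 and 1724, log2 change 1.26, SE 0.03), and Gatm, an enzyme of creatine synthesis (103.7, 103.6 and 127.2 against 41.5, 39.4 and 28.9, log2 change 1.59, SE 0.16). Atp10a, a flippase gene, changed by −0.32 (SE 0.03).

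A list of genes of imprint maintenance, DNA methylation or its removal, and chromatin was also measured. Of 22 tested, 1 was higher (4.55%, against 28.2% of all genes) and 8 lower (36.4%, against 28%), with a median log2 change of −0.01. Dnmt1, the maintenance methyltransferase, and its partner Uhrf1 did not pass, with changes of 0.0009 (SE 0.02) and −0.0038 (SE 0.03). Trim28, the corepressor that ZFP57 recruits, changed by −0.03 (SE 0.02) and did not pass. Zfp57 had a mean of 1805 ± 42.4 against 2147 ± 61.3 (SD, n = 3, log2 change −0.25, SE 0.03), and Zfp445, the other zinc finger gene with this role, 3592 ± 76.0 against 4575 ± 113 (log2 change −0.35, SE 0.03). The de novo methyltransferase genes Dnmt3a and Dnmt3b changed by −0.29 (SE 0.03) and −0.46 (SE 0.12), and Arid4a by −0.16 (SE 0.04). Arid4b, Tet1 and Tet2, the rest of the 8, changed by −0.14 (SE 0.04), −0.45 (SE 0.14) and −0.20 (SE 0.06). Mbd3, a subunit of the NuRD complex, was the gene that rose (0.35, SE 0.03). All of these from Zfp57 on passed the test.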

How the data were processed

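The deposited table gives 1 normalized count per gene and library, a signal value that the authors made by dividing the gene's read count by a size factor of the library. Per the paper's methods, total RNA (RNeasy, TruSeq RNA v2, single-end Illumina reads) was mapped to GRCm38 with TopHat 2.0.10, counted per gene of an Ensembl annotation (HTSeq, settings not stated) and normalized (DESeq2, version not stated). The table's columns of the authors' own comparison (mean, log2 fold change, error, statistic and p-values) were not used.

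Dividing a library's values by their smallest nonzero value gave whole numbers for 100% of values (tolerance 1e-06), taken as recovered reads. Libraries differed by more than sampling noise (chi-square per degree of freedom 1.53 to 3.99 within labels), and none was treated as a copy. Limma 3.58.1 (R 4.3.3, trended variance, two-sided, no block) was fitted to log2 of the normalized count plus 1 for genes with a mean of at least 10, so fold changes of low genes are understated. Benjamini-Hochberg adjustment ran over all 13986 genes, with a threshold of 0.05. Of the 16 alternatives, some used edgeR 4.0.16, DESeq2 1.42.0 and limma-voom on recovered reads. The fit was tested on simulated data. Positions and exon lengths are from GENCODE M21, a later annotation than the one counted, and 95.8% of symbols had a length.

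The members and the gene lists were chosen with earlier results of these data known. Values per library are given for members that passed with a log2 change of at least 0.5 in size, for members under the minimum level and for locus partners. From each other list up to 6 genes with the smallest p that passed are named, plus Saraf. Neighbours, and some other genes given with their values, were named after their values were seen.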

Additional observations from a re-analysis of the deposited data

How the results depend on the processing

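Over 16 alternatives the number of imprinted genes higher under the KO label ran from 4 to 6 and lower from 12 to 15, and genes called in all from 6646 to 7995. Of 461 values for the 29 genes, 434 kept their direction and side of the threshold, 16 lost the call, 2 gained it and 9 turned sign, all 9 of genes that did not pass. Zrsr1 turned to 0.01 under upper-quartile scaling. Leaving out each library in turn gave ranges that cross 0 for Ascl2 (−0.49 to 0.0144), Gnas (−0.052 to 0.0014), Peg12 (−0.11 to 0.0126), Ube3a (−0.0202 to 0.0389) and Zrsr1 (−0.0405 to 0.0294); the cause was not tested. A range by leave-one-out for the counts was 4 to 6 higher, 13 to 14 lower and 6948 to 7910 in all. Calls lost in some settings are Kcnq1ot1, Mcts2, Peg10 and Tssc4, and Ndn passed under upper-quartile scaling. With the replicate number as a block (replicate block), 5 imprinted genes were higher, 15 lower and 7801 of all genes called. Samples with equal numbers did not deviate together (correlations of −0.001 to 0.002). With so few libraries per label, this cannot show whether equal numbers share a litter or preparation. Depth limits Zim1, Ascl2, Zdbf2 and the 4 genes too low to test.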
